A study of Arabidopsis thaliana with 41 samples.

Results

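The 10 genes described here make, or directly control the making of, the immune signals salicylic acid and N-hydroxypipecolic acid in Arabidopsis thaliana. They are a list of 10 locus identifiers, with no cutoff on their values but chosen with earlier results of these data known. All 10 were among the 21164 loci measured. ALD1 (AT2G13810), SARD4 (AT5G52810) and FMO1 (AT1G19250) form the N-hydroxypipecolic acid route. ICS1 (AT1G74710), EDS5 (AT4G39030) and PBS3 (AT5G13320) form the salicylic acid route. CBP60g (AT5G26920) and SARD1 (AT1G73805) are transcription factors, and EDS1 (AT3G48090) and PAD4 (AT3G52430) are signalling proteins that act before synthesis. Rosette leaf RNA was hybridised to 41 arrays from plants under mild soil drying ("dry", 20 arrays) or continued watering ("wet", 21 arrays). Dry pots were brought down day by day to about 50% of their available water on day 5, and wet pots were kept close to 90% over the same days. All plants had a photoperiod of 10 h. The natural accessions, with no transgene or mutation named in the labels, were Ag-0, with 2 dry and 3 wet arrays, and Eden-1, Ull2-5, Tamm-2, Omo2-3, Got-22 and Bil-5, with 3 dry and 3 wet arrays apiece. Replicates are called biological in the design text, and plant age is not given in the sources used here.

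Salicylic acid and N-hydroxypipecolic acid are small molecules that build up in infected leaves and in distant leaves of the same plant, where they prime defence. In the first route, ICS1 converts chorismate to isochorismate in the plastid, EDS5 exports it, and PBS3 joins it to glutamate to give a conjugate that breaks down to salicylic acid. In the second, ALD1 removes the alpha amino group of lysine, SARD4 reduces the product to pipecolic acid, and FMO1 hydroxylates that acid. CBP60g and SARD1 bind the promoters of genes of both routes, while EDS1 and PAD4 form a complex that relays signals from intracellular immune receptors.

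All values are log2 signals, 1 per locus and array, so a difference of 1 stands for a doubling of signal. The middle value over the whole table was 5.71, with 5% of values under 3.85 and 5% over 9.97. Array medians lay between 5.66 and 5.79. Of the 3 arrays of lowest quality weight, 2 were of Bil-5 (0.271 for dry replicate 3 and 0.360 for wet replicate 2) and 1 of Tamm-2 (0.327 for dry replicate 3), and without them 6 members still fell under drying. Members stood at very different heights on the arrays: the median FMO1 value ranked at the 11.5th percentile of loci on dry arrays and the 24.5th on wet arrays, and that of CBP60g at the 86.4th on dry arrays and the 80.9th on wet arrays. Ranks of different loci also reflect their probes, so they order no transcript amounts. EDS1 has a close copy beside it on the chromosome, AT3G48080, listed as a locus of its own, and the sources do not say how probes shared by both were treated, so EDS1 values are uncertain.

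Mild drying lowered most of the synthesis genes. Averaged over the 7 accessions, 6 of the 10 genes fell (FMO1, ALD1, ICS1, EDS5, PBS3 and PAD4) and 0 rose, at an adjusted p under 0.05 from limma, a linear model fitted across all loci. Over all loci, 11.5% fell and 12.2% rose at that adjusted threshold. At an unadjusted p under 0.05, 8 members passed, again all lower, and the share of all loci at that cutoff was not computed. All 3 salicylic acid route genes and 2 of the 3 N-hydroxypipecolic acid route genes fell, whereas neither transcription factor passed the test. Without Eden-1, FMO1 (limma adjusted p = 0.0836) and ALD1 (0.185) missed the threshold, and PBS3 missed it without Ull2-5 (0.0638). The estimate was negative for 9 of the 10 genes, against 50.1% of all loci. The median change of the 10 genes was -0.47, beside -0.0002 for all loci. In whole-leaf RNA, fewer cells of a type and less RNA per cell cannot be told apart.

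**Figure D1:**
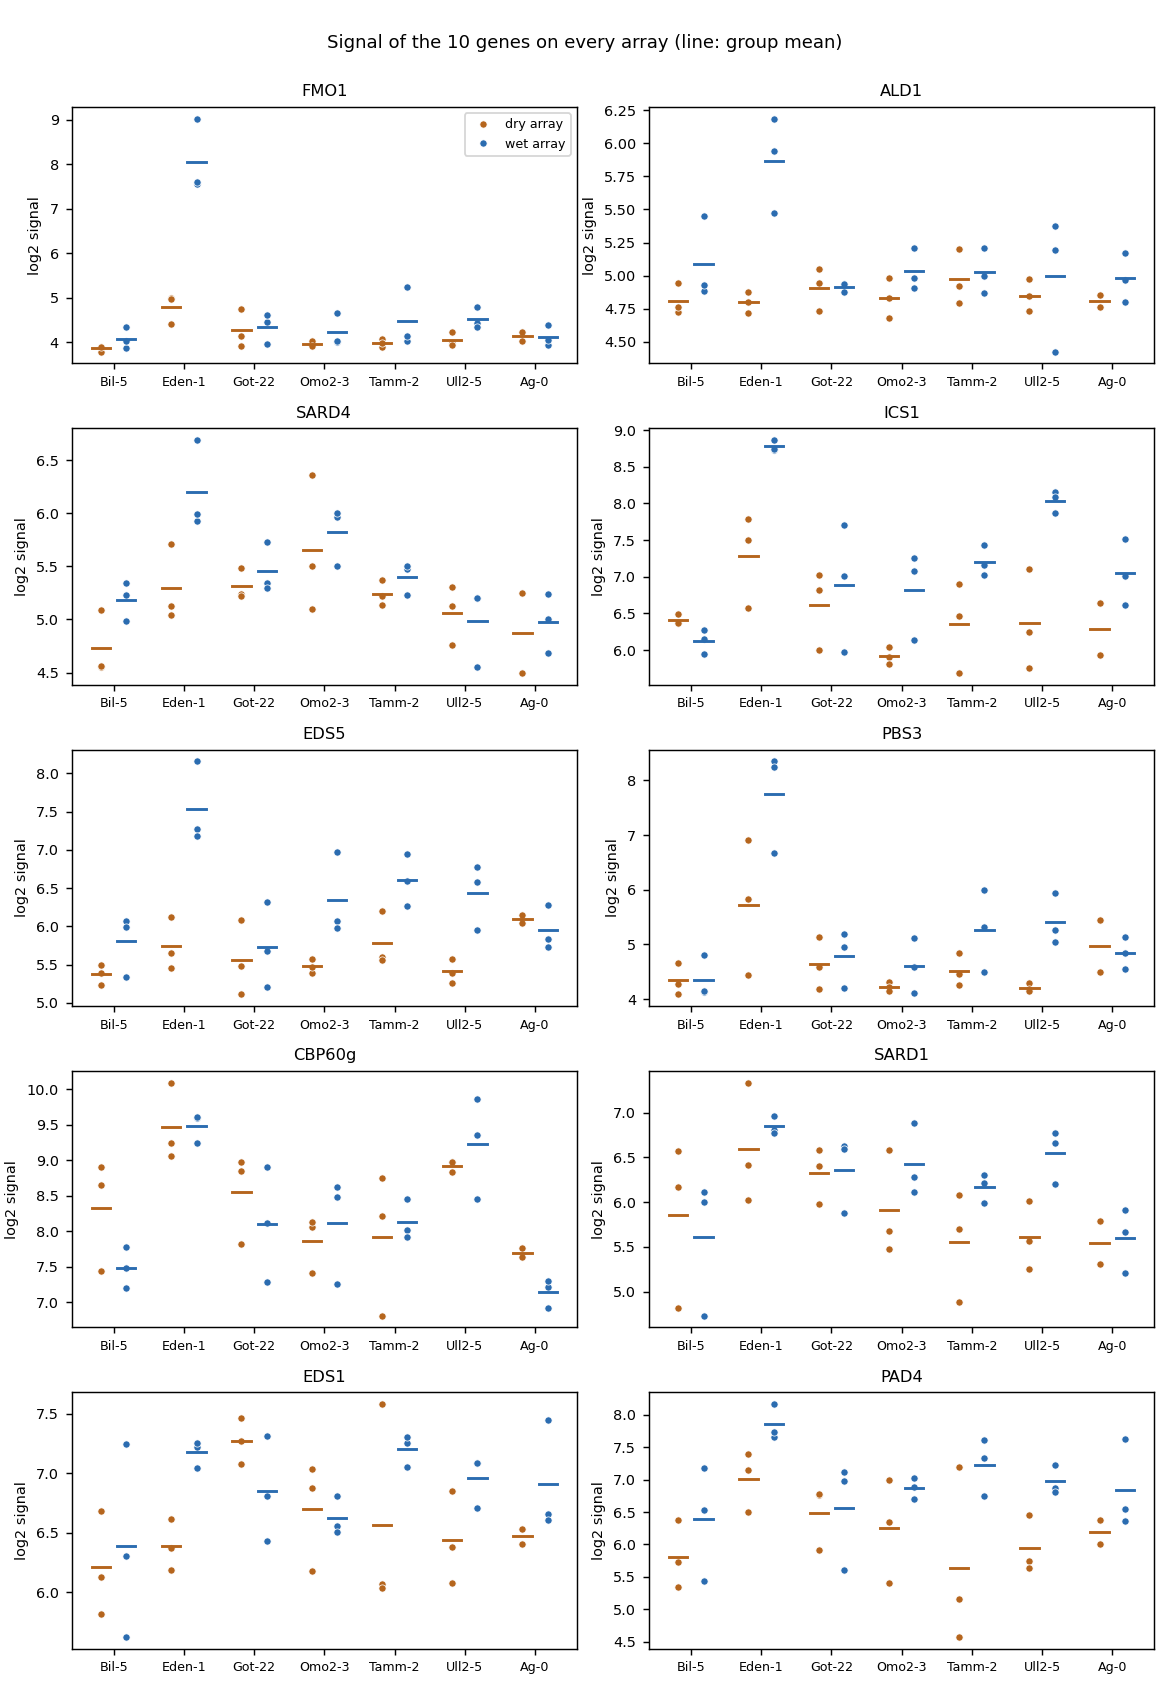
Log2 signal of each of the 10 genes on every array, by accession, with dry arrays left of wet arrays and bars at the group mean. The 3 wet Eden-1 arrays of FMO1, between 7.55 and 9.02, stand apart from all other FMO1 arrays, which lie between 3.79 and 5.24.

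In the salicylic acid route, ICS1, the first enzyme, ran from 5.69 to 7.79 with a median of 6.42 on the 20 dry arrays, and from 5.95 to 8.87 with a median of 7.16 on the 21 wet arrays. The dry arrays were lower in the middle and at the top, but both sets overlapped widely. The ICS1 change was -0.81 ± 0.15 (SE; limma adjusted p = 0.000134), with a lower dry mean in 6 of 7 accessions. EDS5, the isochorismate exporter, ran from 5.11 to 6.20 with a median of 5.53 on dry arrays, and from 5.20 to 8.16 with a median of 6.26 on wet arrays. The highest dry value thus lay just below the median wet value. The EDS5 change was -0.71 ± 0.12 (SE; limma adjusted p = 4.96e-05), again with a lower dry mean in 6 of 7 accessions. PBS3, the conjugating enzyme, ran from 4.09 to 6.90 with a median of 4.38 on dry arrays, and from 4.11 to 8.35 with a median of 5.04 on wet arrays. Many arrays of both sets sat at the low end of the PBS3 range, and the highest values in both came from Eden-1. The PBS3 change was -0.63 ± 0.18 (SE; limma adjusted p = 0.00907). It missed the threshold without Ull2-5 (-0.53, limma adjusted p = 0.0638).

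In the N-hydroxypipecolic acid route, FMO1, the hydroxylase, ran from 3.79 to 4.99 with a median of 4.01 on dry arrays, and from 3.88 to 9.02 with a median of 4.34 on wet arrays. Outside Eden-1, most FMO1 values lay near the low end of the array range. The FMO1 change was -0.68 ± 0.11 (SE; limma adjusted p = 6.1e-05), and it was -0.25 and past the threshold no longer without Eden-1 (limma adjusted p = 0.0836). ALD1, the aminotransferase, ran from 4.68 to 5.21 with a median of 4.84 on dry arrays, and from 4.43 to 6.19 with a median of 4.98 on wet arrays. The dry ALD1 values lay inside the wet range, and all values above the highest dry one were wet. The ALD1 change was -0.28 ± 0.07 (SE; limma adjusted p = 0.00422), negative in all 7 accessions, and -0.14 without Eden-1 (limma adjusted p = 0.185). SARD4, the reductase, averaged 5.18 ± 0.42 on dry arrays (SD, n = 20) and 5.43 ± 0.49 on wet arrays (SD, n = 21). The SARD4 change of -0.26 ± 0.10 (SE) did not pass the threshold (limma adjusted p = 0.0562), but it did under 3 alternative settings, without Omo2-3, Ull2-5 or Ag-0, and when any 1 of 10 single arrays was left out (from 0.0119 there).

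Of the genes that act before synthesis, PAD4 fell and the other 3 did not pass the test. PAD4 ran from 4.57 to 7.40 with a median of 6.36 on dry arrays, and from 5.44 to 8.17 with a median of 6.99 on wet arrays. The PAD4 change was -0.77 ± 0.20 (SE; limma adjusted p = 0.00467) and was negative in all 7 accessions, as it was for ALD1; 7.56% of all loci had a negative change in all 7. EDS1, its partner, averaged 6.58 ± 0.51 on dry arrays (SD, n = 20) and 6.87 ± 0.44 on wet arrays (SD, n = 21). The EDS1 change was -0.30 ± 0.13 (SE; limma adjusted p = 0.113), and it passed the threshold without Tamm-2 dry replicate 1 (0.0186), Bil-5 wet replicate 2 (0.0418) or the whole of Got-22 (0.0491). The neighbouring copy AT3G48080 had a change of -0.30 ± 0.12 (SE; limma adjusted p = 0.0649). CBP60g ran from 6.81 to 10.09 with a median of 8.70 on dry arrays, and from 6.92 to 9.86 with a median of 8.11 on wet arrays. It was the member with a positive estimate, 0.15 ± 0.17 (SE; limma adjusted p = 0.607), with a 95% interval from -0.21 to 0.51. SARD1, which acts alongside CBP60g, had a change of -0.31 ± 0.15 (SE; limma adjusted p = 0.157), and -0.40 without Bil-5 (limma adjusted p = 0.0400).

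**Figure D2:**
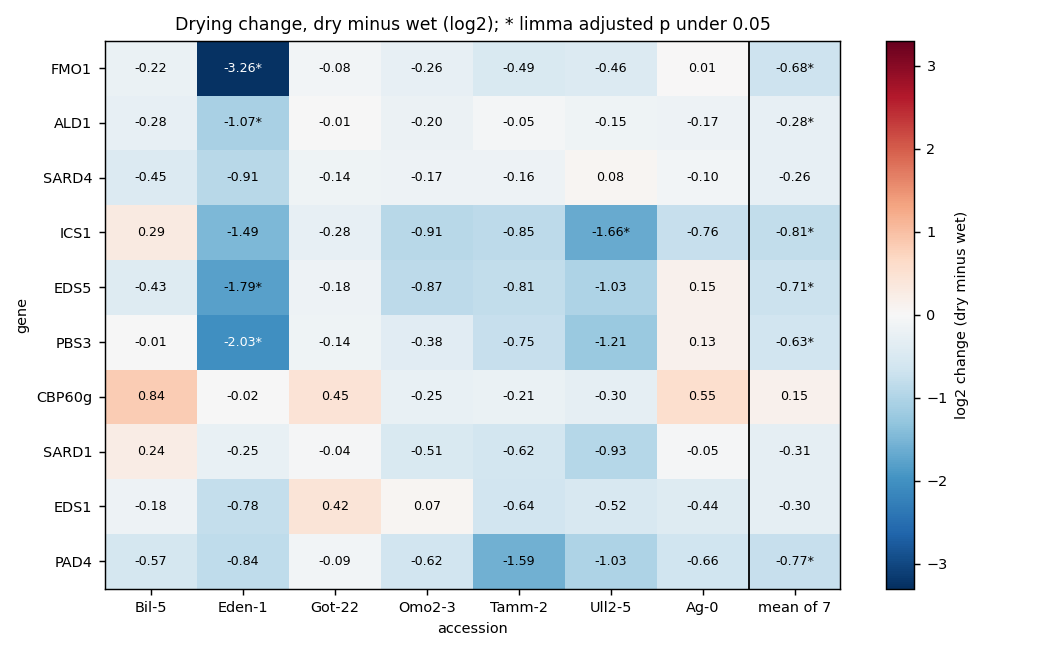
Drying change (dry minus wet, log2) of each of the 10 genes in each of the 7 accessions and as the mean of the 7, with a star where limma's adjusted p was under 0.05. Changes ran from -3.26 for FMO1 in Eden-1 to 0.84 for CBP60g in Bil-5, and ALD1 and PAD4 were negative in every accession.

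Within single accessions, drying changes past the threshold were found in Eden-1, for 4 genes, and in Ull2-5, for 1 gene. In Eden-1, FMO1, ALD1, EDS5 and PBS3 fell, 4 of 10 against 0.203% of all loci. FMO1 had 4.99, 4.97 and 4.42 on dry Eden-1 arrays, against 7.55, 7.59 and 9.02 on wet Eden-1 arrays. Every dry value lay far below every wet one. The change was -3.26 ± 0.30 (SE; limma adjusted p = 1.55e-07), a 9.59-fold lower signal. EDS5 had 5.65, 6.13 and 5.46 on dry Eden-1 arrays, against 7.27, 7.18 and 8.16 on wet ones. The groups did not overlap, and the change was -1.79 ± 0.30 (SE; limma adjusted p = 0.00374). PBS3 had 5.84, 6.90 and 4.45 on dry Eden-1 arrays, against 6.68, 8.35 and 8.25 on wet ones. One dry array exceeded the lowest wet array, and the change was -2.03 ± 0.46 (SE; limma adjusted p = 0.0441). ALD1 had 4.80, 4.88 and 4.72 on dry Eden-1 arrays, against 5.94, 5.47 and 6.19 on wet ones. The ALD1 groups did not overlap, and the change was -1.07 ± 0.18 (SE; limma adjusted p = 0.00375). ALD1 and EDS5 missed the threshold without Eden-1 wet replicate 3 (0.0541 each), PBS3 missed it without any 1 of 18 single arrays, and on the Eden-1 arrays alone none of the 4 passed (FMO1 0.0943). With dry and wet arrays of the same number taken as pairs, FMO1 (0.000418), ALD1 (0.0401) and EDS5 (0.0451) passed and PBS3 did not (limma adjusted p = 0.125).

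CBP60g was high in Eden-1 at both water levels. It had 9.05, 10.09 and 9.23 on dry Eden-1 arrays, against 9.24, 9.60 and 9.61 on wet ones. The values overlapped, and the change was -0.02 ± 0.45 (SE; limma adjusted p = 0.997). ICS1 had 7.50, 7.79 and 6.57 on dry Eden-1 arrays, against 8.73, 8.74 and 8.87 on wet ones. All dry ICS1 values lay below all wet values, yet the change of -1.49 ± 0.38 (SE) missed the threshold (limma adjusted p = 0.0894). It passed with array quality weights (0.0101) and without Got-22 (0.0439). In all, dry and wet Eden-1 arrays did not overlap, with dry below, for 7 of the 10 genes, against 7.63% of all loci.

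In Ull2-5, ICS1 had 6.25, 5.76 and 7.10 on dry arrays, against 8.15, 7.87 and 8.08 on wet arrays. The sets were separate, and ICS1 fell by 1.66 ± 0.38 on the log2 scale (SE; limma adjusted p = 0.0233), 1 of 10 members beside 0.879% of all loci that fell in Ull2-5. That call was lost without any of the 6 Ull2-5 arrays except dry replicate 3 (limma adjusted p up to 0.164), and with arrays of the same number taken as pairs (0.0641). Dry arrays lay below wet arrays for 6 of the 10 genes in Ull2-5 (FMO1, ICS1, EDS5, PBS3, SARD1 and PAD4), against 9.57% of all loci. The count was 2 in Omo2-3 and 2 in Tamm-2, in both cases ICS1 and EDS5, against 9.51% of loci in Omo2-3 and 8.1% in Tamm-2. It was 1 in Ag-0, for EDS1, against 14% of loci (the reverse held for CBP60g, against 15.3%), 0 in Bil-5, against 7.42% of loci, and 0 in Got-22, against 8.01%. Bil-5 went the other way for ICS1, with 6.37, 6.50 and 6.37 on dry arrays, against 5.95, 6.27 and 6.15 on wet ones, a separation with dry above wet that 8.92% of loci shared. This difference of 0.29 did not pass the test. In the 5 accessions other than Eden-1 and Ull2-5, limma called none of the 50 member changes, where it called 4.2% of all loci in Bil-5, 1.26% in Tamm-2, 0.421% in Ag-0, 0.0945% in Got-22 and 0% in Omo2-3. Of the 50, 5 had an unadjusted p under 0.05: ICS1 and EDS5 in Omo2-3, and ICS1, EDS5 and PAD4 in Tamm-2. The share of all loci at that unadjusted cutoff was not computed, so these 5 have no background beside them. PAD4 had 7.20, 5.15 and 4.57 on dry Tamm-2 arrays, against 7.62, 7.33 and 6.75 on wet ones. One dry array lay within the wet range, and the change was -1.59 ± 0.52 (SE; limma adjusted p = 0.118).

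The size of the FMO1 change differed between accessions. A test that the 7 drying changes were equal passed for FMO1 (F = 14.9, limma adjusted p = 0.00221) and for no other of the 10 genes, against 0.0284% of all loci. With Eden-1 left out the count was 0, and with array quality weights it was 3, with ALD1 (0.0408) and EDS5 (0.0365) added. The shares of all loci in these alternative fits were not computed. With arrays of the same number taken as pairs the FMO1 test did not pass (limma adjusted p = 0.131). The FMO1 change in Eden-1 was -3.01 ± 0.32 (SE) beyond the mean change of the other 6 accessions (limma adjusted p = 5.98e-06, and 0.00540 with the pairs), a comparison that 0.0473% of loci passed. In those 6 accessions the FMO1 change lay between -0.49 in Tamm-2 and 0.01 in Ag-0. Their wet FMO1 means ran from 4.09 in Bil-5 to 4.52 in Ull2-5, near the low end of the array range. A fall as large as that of Eden-1 could not have been seen there. The corresponding Eden-1 difference was -0.92 ± 0.20 (SE) for ALD1, past no threshold (limma adjusted p = 0.0868). In the same comparison for each of the other 6 accessions limma called no member. At most 2 had an unadjusted p under 0.05, a cutoff at which all loci were not counted. Of all loci, that comparison called 0.00945% for Bil-5, 0.00473% for Got-22, 0% for Omo2-3, 0.0142% for Tamm-2, 0.0425% for Ull2-5 and 0.00473% for Ag-0.

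Accessions differed in the wet levels of 7 of the 10 genes (limma F test), against 15.2% of all loci, and in the dry levels of 0 of 10, against 14.9% of all loci. The 7 were FMO1, ALD1, SARD4, ICS1, EDS5, PBS3 and CBP60g. In dry plants the lowest adjusted p was 0.0518, for CBP60g, 3 members had an unadjusted p under 0.05, and array quality weights gave 3 calls. The shares of all loci at that unadjusted cutoff and with those weights were not computed. Whether the spread between accessions differed between wet and dry plants was tested only through the interaction, given above. The wet differences rested largely on Eden-1: without it 2 of the 7 passed, ICS1 and CBP60g, and FMO1 did not (limma adjusted p = 0.669).

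Wet Eden-1 plants held the highest mean wet level of every member but EDS1, which was highest in Tamm-2. Against the mean of the other 6 wet groups, 7 of 10 genes were higher, whereas 3.89% of all loci were higher. These comparisons share the wet Eden-1 arrays with the drying changes of Eden-1, so the values are set side by side and not as separate evidence. FMO1 ran from 7.55 to 9.02 on the 3 wet Eden-1 arrays, and from 3.88 to 5.24 with a median of 4.25 on the other 18 wet arrays. The difference was 3.76 ± 0.23 (SE; limma adjusted p = 5.77e-13), a 13.5-fold higher signal. PBS3 ran from 6.68 to 8.35 on wet Eden-1 arrays, and from 4.11 to 6.00 with a median of 4.90 on the others. The difference was 2.88 ± 0.35 (SE; limma adjusted p = 1.5e-06), a 7.36-fold higher signal. ICS1 ran from 8.73 to 8.87 on wet Eden-1 arrays, and from 5.95 to 8.15 with a median of 7.05 on the others, a difference of 1.76 ± 0.29 (SE).

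EDS5 was 1.39 ± 0.23 (SE) higher in wet Eden-1, ALD1 0.86 ± 0.14 and SARD4 0.90 ± 0.20. CBP60g was 1.45 ± 0.35 (SE) higher, although the highest single wet value of CBP60g, 9.86, came from Ull2-5. PAD4 was higher by 1.04 ± 0.39 (SE) without passing (limma adjusted p = 0.125). It passed with array quality weights (0.0302) and without Tamm-2 (0.048). EDS1 was higher by 0.35 (limma adjusted p = 0.555) and SARD1 by 0.73 (0.184), also without passing. The wet Eden-1 arrays lay above all 18 other wet arrays for 6 of the 10 genes (FMO1, ALD1, ICS1, EDS5, PBS3 and PAD4), against 1.26% of all loci. Under drying that held for CBP60g alone, 1 of 10 against 1.87% of all loci. The SARD4 call was lost without Eden-1 wet replicate 3 (limma adjusted p = 0.145), and the CBP60g call without Eden-1 wet replicate 2 (0.0710) or wet replicate 3 (0.0741). Accessions can differ in sequence under the probes, the sources do not say whether such probes were removed, and the part of this in the level differences was not tested; a dry minus wet change compares the same probes within 1 accession.

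**Figure D3:**
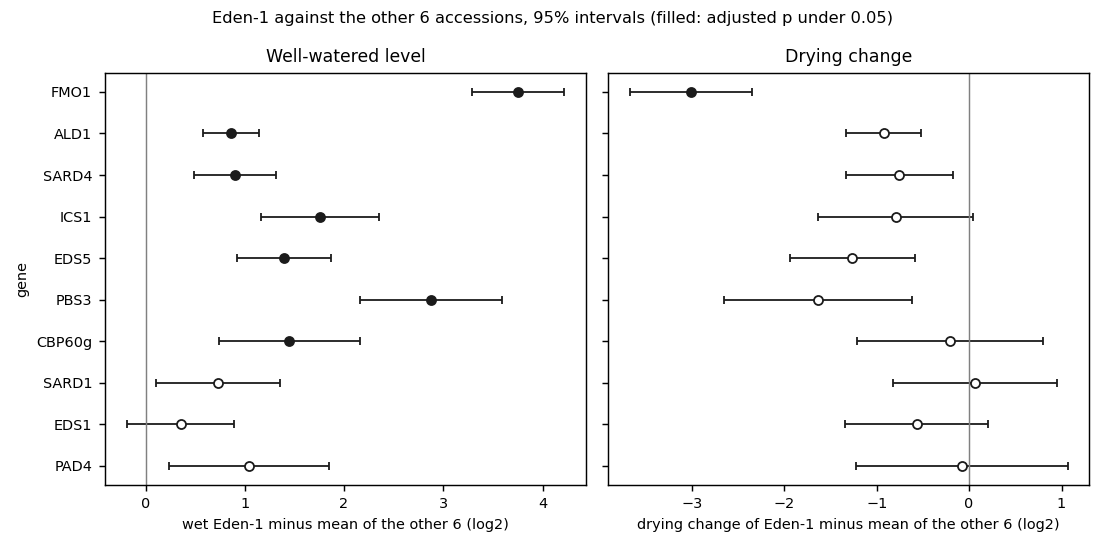
Eden-1 minus the mean of the other 6 accessions for each of the 10 genes, as log2 differences with 95% intervals, filled where limma's adjusted p was under 0.05; the left panel shows the wet level and the right panel the drying change, and both use the wet Eden-1 arrays. FMO1 lies farthest from 0 in both panels, at 3.76 for the wet level and -3.01 for the drying change, while CBP60g lies at 1.45 for the wet level and -0.20 for the drying change.

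The order of wet levels showed few steps wider than the spread of the arrays. For ICS1 the wet means ran from 8.78 in Eden-1 through 8.04 in Ull2-5, 7.20 in Tamm-2, 7.05 in Ag-0, 6.89 in Got-22 and 6.82 in Omo2-3 to 6.12 in Bil-5. Eden-1 and Ull2-5 were each separate from the accession below, and all lower neighbours overlapped. For FMO1, ALD1, EDS5, PBS3 and PAD4, Eden-1 was separate from the second accession and no other neighbours were. For SARD4, CBP60g, SARD1 and EDS1 every pair of neighbours overlapped. Separate neighbours were not counted over all loci, of which 1.26% had all wet Eden-1 arrays above the other 18 wet arrays. Other wet levels past the threshold were low ICS1 in Bil-5 (-1.34 ± 0.29 (SE), limma adjusted p = 0.0136), where 0.487% of loci were lower, and high CBP60g in Ull2-5 (1.14 ± 0.35 (SE), limma adjusted p = 0.0477), where 3.67% were higher. In Ag-0, CBP60g (-1.27 ± 0.35 (SE), limma adjusted p = 0.0372) and FMO1 (-0.82 ± 0.23 (SE), limma adjusted p = 0.0400) were lower, beside 1.43% of loci. The mean of the other 6 for FMO1 includes Eden-1, and without Eden-1 the Ag-0 difference was -0.20 (limma adjusted p = 0.730). The Bil-5 call was lost without any 1 of its 3 wet arrays (up to 0.107) or without Eden-1 (-1.08, 0.120). The Ull2-5 call was lost without 26 of the 41 single arrays (up to 0.311), with the replicate number as a block (0.0574) and with array quality weights (0.0662). The Ag-0 calls were lost without any 1 of its 3 wet arrays (up to 0.264 for FMO1 and 0.221 for CBP60g), and that of CBP60g also without Eden-1 (0.147) or Ull2-5 (0.106).

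Around the 10 genes, 48 further pathway genes were listed and 45 measured, of which 3 rose and 12 fell under drying, beside 12.2% of all loci that rose and 11.5% that fell (23.7% called either way). Of these 15 calls, 6 held under every alternative: EDS5H, ICS2, LHT1, CBP60A, ADR1-L1 and NAC055. Of 8 other synthesis genes, EDS5H, a homologue of EDS5, rose by 0.51 ± 0.07 (SE; limma adjusted p = 9.67e-06), and AGD2, an aminotransferase of lysine synthesis, by 0.25 ± 0.08 (0.0230). ICS2, the second isochorismate synthase, fell by 0.27 ± 0.06 on the log2 scale (0.00239), and EPS1, which speeds the last step to salicylic acid, by 0.22 ± 0.08 (0.0396). PAL1, of the phenylpropanoid route to salicylic acid, had a change of -0.38 ± 0.15 (0.0682). The median change of these 8 was 0.08. The AGD2 call was lost with array quality weights (0.0741) and without Bil-5, Got-22, Tamm-2 or Ull2-5 (up to 0.0854). The EPS1 call was lost without any 1 of 19 single arrays and with same-numbered arrays as pairs (0.0715).

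Of 8 turnover and transport genes, 2 fell and 6 did not pass. LHT1, an amino acid transporter, fell by 0.95 ± 0.15 on the log2 scale (SE; limma adjusted p = 2.62e-05), and DLO1, a salicylic acid hydroxylase, by 0.92 ± 0.28 (0.0166). DMR6, a second such hydroxylase, had a change of -0.63 (0.119), UGT76B1, which glucosylates N-hydroxypipecolic acid, -0.24 (0.188), and MES9, a methyl salicylate esterase, -0.20 (0.275). The UGT76B1 value depended on single Eden-1 arrays: it was -0.12 without wet replicate 3 (0.0134) and -0.32 without wet replicate 1 (0.0242). The DLO1 call was lost without Ag-0 dry replicate 3 (0.0578), Omo2-3 (0.0526) or Tamm-2 (0.0970). The median change of these 8 was -0.22.

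Of 17 measured upstream regulators, 1 rose and 4 fell, beside 12.2% of all loci that rose and 11.5% that fell. CBP60A, a CBP60 family member that acts against defence, rose by 0.48 ± 0.13 (SE; limma adjusted p = 0.00511). ADR1-L1, a helper immune receptor that works with EDS1 and PAD4, fell by 0.48 ± 0.09 on the log2 scale (0.000245), and SAG101, another EDS1 partner, by 0.25 ± 0.08 (0.0200). NAC055, a repressor of ICS1, fell by 0.70 ± 0.16 (0.00174), and CAMTA2, a calmodulin-binding repressor of the pathway, by 0.12 ± 0.04 (0.0353). The list thus holds repressors and activators among its falling members, and its median change was -0.12. The SAG101 call was lost with array quality weights (0.0564), without Ag-0 dry replicate 3 (0.0536) and without Tamm-2 (0.123) or Ull2-5 (0.127). The CAMTA2 call was lost without any 1 of 12 single arrays and with same-numbered arrays as pairs (0.0916).

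Of 12 measured receptors and targets of salicylic acid, 4 fell and 8 did not pass. PR1 fell by 1.18 ± 0.41 on the log2 scale (SE; limma adjusted p = 0.0353) and PR2 by 0.999 ± 0.33 (0.0242), both secreted defence proteins. The transcription factor WRKY53 fell by 0.63 ± 0.20 (0.0200), and WRKY38, another, by 0.41 ± 0.13 (0.0187). NIMIN1, an NPR1-binding protein, had a change of -0.30 (0.0619), and the median of the 12 was -0.26. NDR1, NIMIN2 and WRKY62 are not analysed here. WRKY38 was -0.23 without Eden-1 (limma adjusted p = 0.259), and WRKY53 missed the threshold without Bil-5 (0.0661), Ull2-5 (0.0791) or Eden-1 (0.0944). The PR1 call was lost without any 1 of 12 single arrays (up to 0.109) and without Bil-5 (0.160), Tamm-2 (0.164) or Ull2-5 (0.0787). It was also lost with array quality weights (0.0557) and without the 3 low-weight arrays (0.0759). The PR2 call was lost without Ag-0 dry replicate 3 (0.0696), Bil-5 (0.0796), Omo2-3 (0.0863) or Tamm-2 (0.114). NIMIN1 passed with same-numbered arrays as pairs (0.0376).

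**Figure D4:**
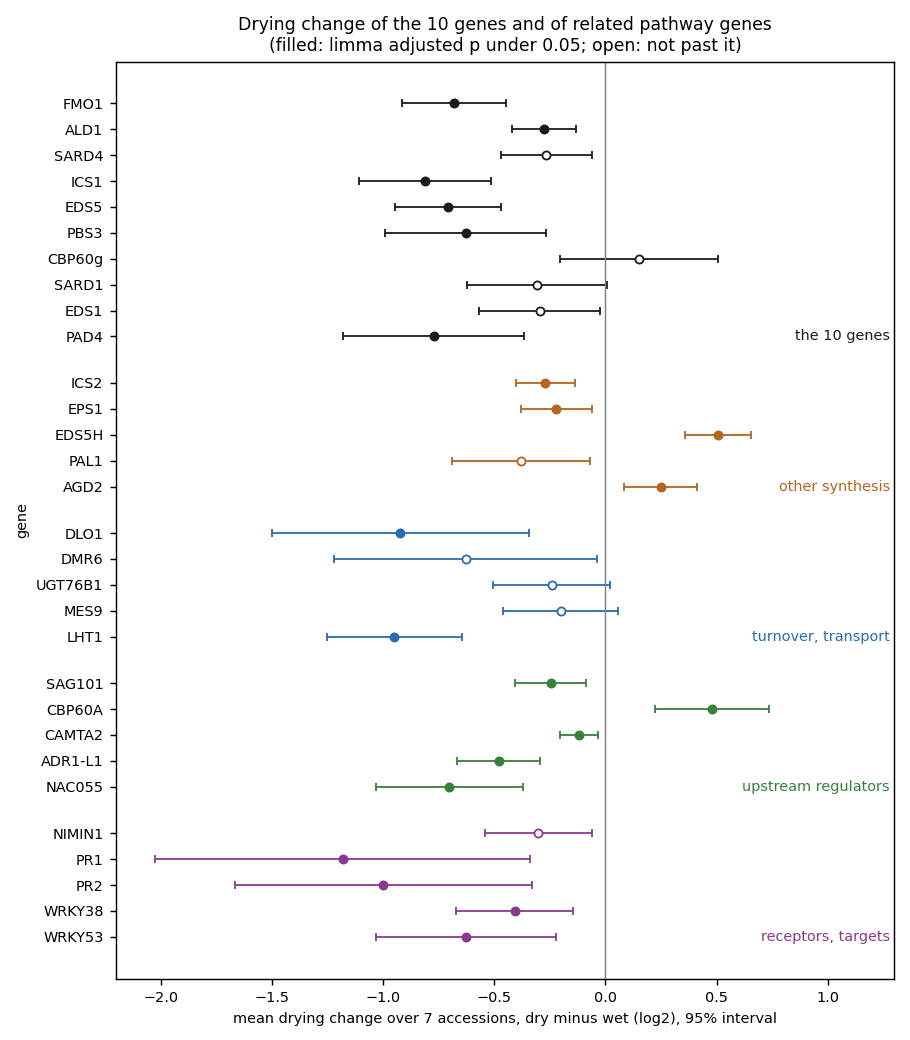
Drying change (mean over 7 accessions, dry minus wet, log2) with its 95% interval for the 10 genes and the related pathway genes named in the text. Filled points passed limma's adjusted p under 0.05; 6 of the 10 genes lie below 0 as filled points and 0 above.

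In wet Eden-1, 9 of the 45 further genes were higher than in the other 6 accessions and 1 was lower, beside 3.89% of all loci higher and 2.57% lower. Of the 9, 5 were targets or receptors and 3 turnover or transport genes; PR5, ADR1 and NPR3 are named after their values were seen. DLO1 differed by 3.49 ± 0.56 (SE; limma adjusted p = 0.000112), WRKY38 by 3.23 ± 0.25 and PR1 by 3.18 (0.0142). The other differences were 2.75 for PR5, 2.51 for PR2, 2.36 for NIMIN1, 1.72 for MES9, 1.35 for UGT76B1 and 1.15 for ADR1. The UGT76B1 difference depended on single wet Eden-1 arrays, and its value without them is not given here. Its mean drying change of -0.24 became -0.12 without wet replicate 3 and -0.32 without wet replicate 1. NPR3, a salicylic acid receptor, was lower by 0.65 on the log2 scale. Under drying within Eden-1, WRKY38 fell by 1.47 ± 0.33 on the log2 scale (SE; limma adjusted p = 0.0433). PR1 had a mean of 13.48 on dry Eden-1 arrays and 13.56 on wet Eden-1 arrays, near the top of the array range, with a change of -0.08 ± 1.07 (SE; limma adjusted p = 0.997).

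Markers of leaf state and of other leaf cell types were read beside these genes. Over all loci 11.5% fell under drying, and of 5 senescence markers 4 fell. Within Eden-1 none of the 5 passed, where 0.203% of all loci fell. The group sums of their 5 mean log2 levels ran from 32.8 to 38.2 on dry arrays and from 37.7 to 41.5 on wet arrays. In Ag-0 the sum was 37.7 in both dry and wet plants. The 4 were SAG13 (-0.79), ORE1 (-1.28), NAP (-1.48) and SAG21 (-0.56), while SAG12, the defining late marker, lay near the low end at means of 4.02 on dry arrays and 3.93 on wet arrays. SAG13 was also higher in wet Eden-1, by 2.66. Both phloem markers, SUC2 (-0.32) and APL (-0.34), fell, with group sums from 14.5 to 15.9 on dry arrays and from 15.4 to 16.4 on wet arrays, and 1 of 2 guard cell markers fell, FAMA by 0.15 on the log2 scale, with sums from 10.4 to 11.1 on dry arrays and from 10.7 to 12.0 on wet arrays. The leaf markers LHCA1 and RCA stood near the top of the array range and did not pass the test. None of 5 root markers and neither of 2 dividing cell markers passed. The part of these markers in the drying changes was not tested.

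After each group mean was removed, the deviations of 42 of the 45 pairs of members had a positive correlation over the 41 arrays, beside 50.4% of all pairs of loci. The median r was 0.38 for members and 0 for all pairs of loci, with a member range from -0.18 (ALD1 with SARD1) to 0.87 (EDS1 with PAD4). The EDS1 and PAD4 pair had a Spearman rho of 0.82, and r was 0.83 without the 2 arrays farthest from the EDS1 median. CBP60g with SARD1 had an r of 0.74, FMO1 with PBS3 0.64, and ICS1 with EDS5 0.61. These values are a description over arrays of 14 groups in 1 deposited table. Among loci outside the 10, the levels most like ICS1 over the 41 arrays were those of ABCG40 (r = 0.87), AT5G38900 and WRKY75 (0.85 each), and AT3G28580 and Hsp70-2 (0.84 each). CRK37 and AT3G13610 (0.91 each), AT3G28510 (0.87), WRKY38 and AT4G35070 (0.86 each) were most like FMO1, a likeness that the wet Eden-1 arrays enter. Spearman rho for these FMO1 loci was lower, from 0.62 to 0.72. With group means removed, r was 0.45 to 0.65 for the FMO1 loci and 0.45 to 0.58 for the ICS1 loci. AT1G49050 and AT3G51890 (0.90 each), CERK1, PNG1 and CRT3 (0.86 each) were most like PAD4, with r from 0.74 to 0.89 after group means were removed.

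**Figure D5:**
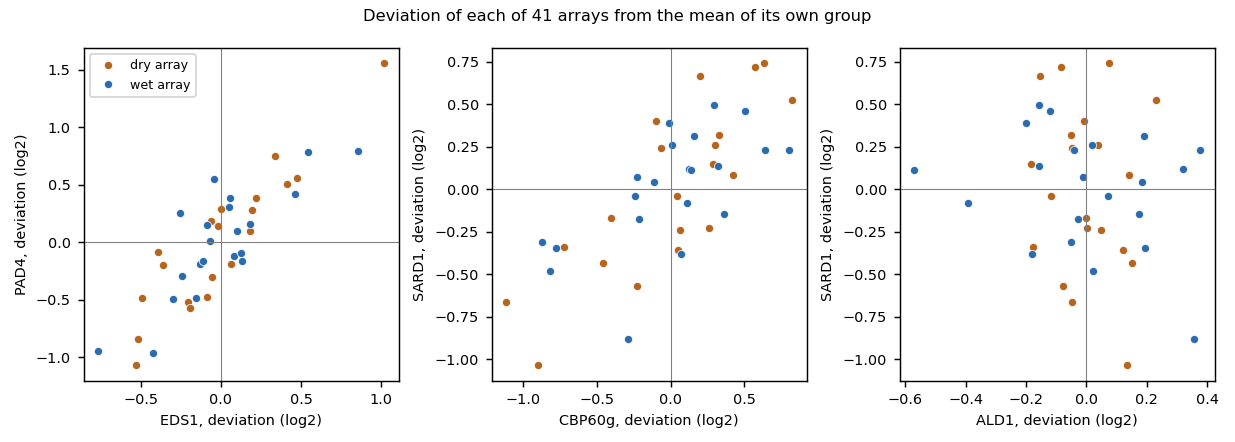
Deviation of each array from its group mean (log2) for pairs of the 10 genes, with dry and wet arrays marked. The EDS1 and PAD4 pair lies close to a line (r = 0.87 over 41 arrays), CBP60g with SARD1 is looser (r = 0.74), and ALD1 with SARD1 shows no rising line (r = -0.18).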

How the data were processed

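The authors deposited 1 log2 value per locus and array. The log2 unit was read from the values themselves (3.35 to 14.30). The submitters' processing notes name MAS5 and RMA but give neither role nor version. No locus was removed and no normalisation was added. Array values have no counts behind them, so the number of arrays limits precision. Gene symbols were looked up in a RefSeq table (assembly TAIR10.1), which named 20972 of the 21164 loci, and 0 columns belonged to other samples.

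A single model with 14 group means was fitted to 41 arrays with limma 3.58.1 in R 4.3.3 (27 residual and 2.06 prior degrees of freedom). Two-sided p-values were adjusted by Benjamini-Hochberg over all loci in each comparison, with a threshold of 0.05. Drying was the mean of 7 dry minus wet differences. The labels do not say that dry and wet arrays sharing a number are pairs. Deviations of 10 of the 20 such pairs correlated above 0.1 (range -0.49 to 0.54), among them all pairs of Eden-1, Ull2-5 and Ag-0, so values with these pairs as blocks are given where they change a call.

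The members and lists were chosen with earlier results of these data known. All members are named. From each other list the 5 smallest p-values of drying, and any called change of 0.5 or more, are named, and for ICS1, FMO1 and PAD4 the 5 loci of highest correlation. Alternatives were quantile normalisation, median centring, removal of the lowest 25% of loci, array quality weights, a trend and robust prior, replicate blocks, single accessions, and leaving out each array or accession. After seeing the data, a fit leaving out 3 arrays (quality weight under 0.5) and the pair block within accessions were added.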

Additional observations from a re-analysis of the deposited data

Results flagged for a closer look

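The drying change of FMO1 differed between accessions in a test of the difference itself. The change in Eden-1 was -3.01 on the log2 scale relative to the mean change of the other 6 accessions (limma adjusted p = 5.98e-06), and it lay between -3.26 and -2.53 when any 1 array was left out. All 3 dry Eden-1 arrays lay below all 3 wet ones. Wet FMO1 means of the other 6 accessions, from 4.09 to 4.52, were near the low end of the array range and left little room for a fall. On the dry side, FMO1 ran from 4.42 to 4.99 in Eden-1 and from 3.79 to 4.76 on the other 17 dry arrays. The ranges overlapped through Got-22 dry replicate 1 (4.76), and the next highest of those 17 arrays had 4.25. Eden-1 held the highest dry mean, 4.79, followed by Got-22 at 4.27, while the F test over dry levels did not pass (limma adjusted p = 0.224).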

How the results depend on the processing

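The count of members that fell under drying was 6 to 7 under every alternative except leaving out Eden-1, which gave 4, and it was 6 with the replicate number as a block and 7 with accession and number as a replicate block. Leaving out single arrays gave 1 to 4 members fallen in Eden-1, 1 to 2 called for Eden-1 against the other 6, and 0 to 2 differing among dry groups. On its own arrays Eden-1 gave 0 fallen members. The interaction called 3 members with array quality weights, 0 without Eden-1 and 0 with accession and number as a replicate block, which gave 3 fallen members in Eden-1. Eden-1 against the other 6 called 3 with quality weights, 2 without the low-weight arrays and 2 without Ull2-5. Wet levels differed for 2 members without Eden-1. Dry levels differed for 3 members with quality weights. They differed for 1 member under quantile normalisation, median centring, removal of low loci, the trend and robust prior and removal of the low-weight arrays, and for 1 without Bil-5, Got-22 or Tamm-2. The shares of all loci called were not computed under the alternatives, so these member counts have no background beside them. Changes near 0 turned sign when single arrays were left out: CBP60g in Eden-1 ran from -0.34 to 0.18 (0.18, 0.03, 0.09 and 0.04 where positive), and SARD1 from -0.62 to 0.0298. Of 4766 alternative values for 86 single-gene results, 4507 kept direction and call, 183 lost the call, 71 gained it and 5 reversed.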
